A study of Zea mays with 6 samples.

Results

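The genes described here are the 146 maize genes, of 109715 listed identifiers, whose mRNA was higher under drought in both leaf and root of the hybrid ZD619 without a drop of the same kind in stem. They were selected on the measured values themselves. For each tissue the change was expressed as L, the log2 of (drought FPKM + 1) over (control FPKM + 1), where FPKM is a fragment count corrected for the length of the transcript and the depth of the library. A gene was kept when L was at least 1.5 in leaf and in root and above -1 in stem, when all 4 leaf and root libraries were above 0 FPKM, and when the higher library reached at least 10 FPKM in leaf and in root. The sizes of the changes and the levels in leaf and root are therefore a description of what was selected. The rule did not use the stem values above the limit of -1 or the identities of the genes.

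RNA was taken from leaf, stem and root of wild type ZD619 plants, which the labels place at an early leaf stage. Control plants were kept well watered, and drought plants had water withheld from the seedling stage until the soil reached a low water content, which was then held for some days. ZD619 is a hybrid with drought resistance in the field, and the reads were mapped to the genome of the inbred line B73. Each tissue and treatment had 1 library, 6 libraries in all, so no difference below has a replicate check, an error or a p-value. The FPKM of a library summed to between 544251 in root control and 908668 in root drought, and between 37881 and 40428 genes were above 0. The tables hold FPKM and no fragment counts, so the counting error of a value was not computed.

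When soil dries, plants make the hormone abscisic acid, which binds PYR/PYL receptors, holds back type 2C protein phosphatases and lets kinases switch on protective genes such as dehydrins and other LEA proteins. Leaves close their stomata and lose photosynthetic transcripts, while roots adjust growth, cell walls and hormone balance to keep reaching for water. Jasmonate, made from lipids by allene oxide synthase and later enzymes, and cytokinin, broken down by cytokinin oxidases, are further hormones that are adjusted in stressed tissue.

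The tissue labels and the treatment labels were checked before the members were described. The 19 photosystem, light-harvesting and small Rubisco subunit genes used as markers of green tissue had a median of 592 FPKM in leaf control, 206 FPKM in leaf drought, 1739 FPKM in stem control and 1595 FPKM in stem drought. Their median was 1.36 FPKM in root control and 0.311 FPKM in root drought, so the root libraries were low in green tissue transcripts and the libraries labelled stem were not. The drought labels were then read against genes that are textbook responders to water deficit, and leaf and root differed. The dehydrin gene dhn1, also called rab17 (GRMZM2G079440), had 2.46 FPKM in leaf control and 184 FPKM in leaf drought, but 678 FPKM in the library labelled root control and 3.03 FPKM in the library labelled root drought. The dehydrin gene dhn2 (GRMZM2G373522) had 3.87 and 68.1 FPKM in leaf control and drought, and 811 and 158 FPKM in root control and drought. Lea14A (GRMZM2G050607), a LEA protein gene, had 1.30 and 3.12 FPKM in leaf control and drought, and 33.1 and 5.13 FPKM in root control and drought. All 3 genes were thus higher in the drought library of leaf and in the control library of root.

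Other families of the response were read in the same way. The type 2C protein phosphatase and PYL receptor lists were added after values were seen. Their counts are descriptions and no independent check of the labels. Of the 33633 genes with at least 1 FPKM in some library, 7.42% had L of at least 1 in leaf, 18.9% in root and 1.96% in both, and 6.85% had L of -1 or less in leaf and 7.85% in root. Of 25 listed type 2C protein phosphatase genes, 9 had L of at least 1 in leaf and none had L of -1 or less, whereas in root 2 had L of at least 1 and 8 had L of -1 or less. The 8 were all among the 9, for example PP2C13 with L of 2.46 in leaf and -4.21 in root, and 1 gene had L of at least 1 in both. Of 11 listed PYL receptor genes, 7 had L of at least 1 in root and none fell that far, and in leaf no receptor passed either limit. Of 24 heat shock protein and heat shock factor genes, 13 had root L of -1 or less and 1 had root L of at least 1, while in leaf 5 had L of -1 or less and 2 had L of at least 1. The root libraries go against their labels for the dehydrins, and the 8 phosphatase genes also changed in opposite directions in leaf and root. Whether the labels were exchanged was not tested. Root libraries are therefore called by their label throughout, every direction in root is drought over control as labelled, and a rise in root below would be a fall if the labels were exchanged.

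**Figure D1:**
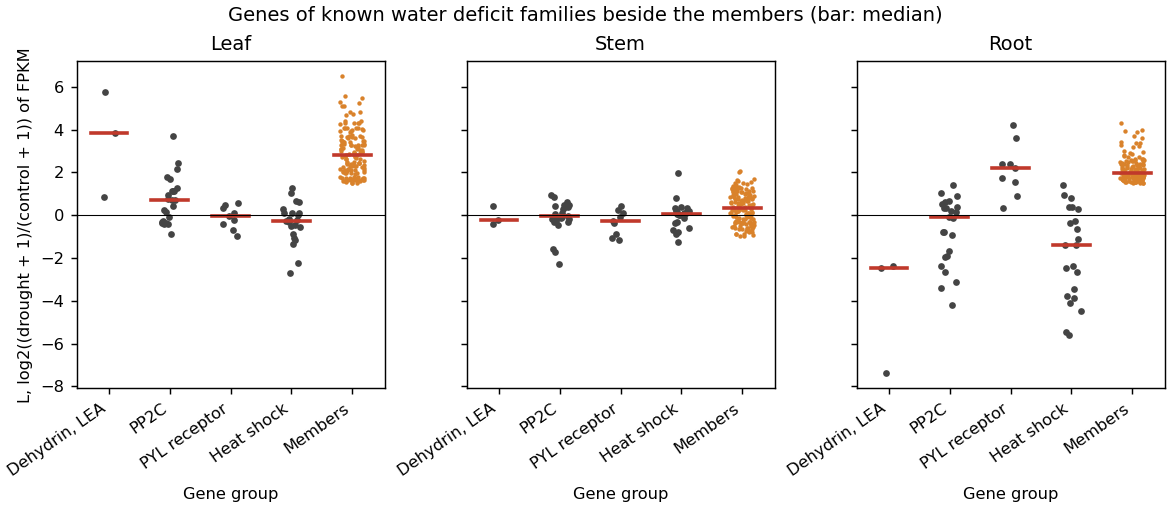
L (log2, drought over control as labelled) in leaf, stem and root for 4 groups of genes known from the response to water deficit (black points, 1 per gene with at least 1 FPKM in some library) and for the 146 members (orange), with the median as a red bar. The dehydrin and LEA genes had a median of 3.83 in leaf and -2.48 in root, PYL receptors a median of 2.20 in root, and the members lie above 1.5 in leaf and root by their selection.

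Of the 109715 identifiers, 10828 met the level part of the rule in leaf and root. Among these, 509 (4.7%) had L of at least 1.5 in leaf, 1175 (10.9%) in root and 161 (1.49%) in both. The 161 genes were 31.6% of the genes past the limit in leaf and 13.7% of those in root. The stem limit left out 15 of them, which gave the 146 members. Opposite patterns also occurred, with 60 genes of the same level higher in leaf drought and lower in root drought by 1.5, 56 genes lower in leaf and higher in root, and 11 genes lower in both.

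The root columns differed in scale from the rest. Over the 10828 genes the median L was -0.04 in leaf, 0.05 in stem and 0.37 in root, so the root limit of 1.5 lay nearer to the typical gene than the leaf limit did. A single identifier, GRMZM2G581850, had 86748 FPKM in root drought, 9.55% of the sum of that column, and is listed at 0 in root control. When each library was rescaled to the same sum, 61 genes passed the rule, and 48 of them were among the 146. With the median L over expressed genes subtracted in each tissue, 118 genes passed and 117 of them were among the 146.

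**Figure D2:**
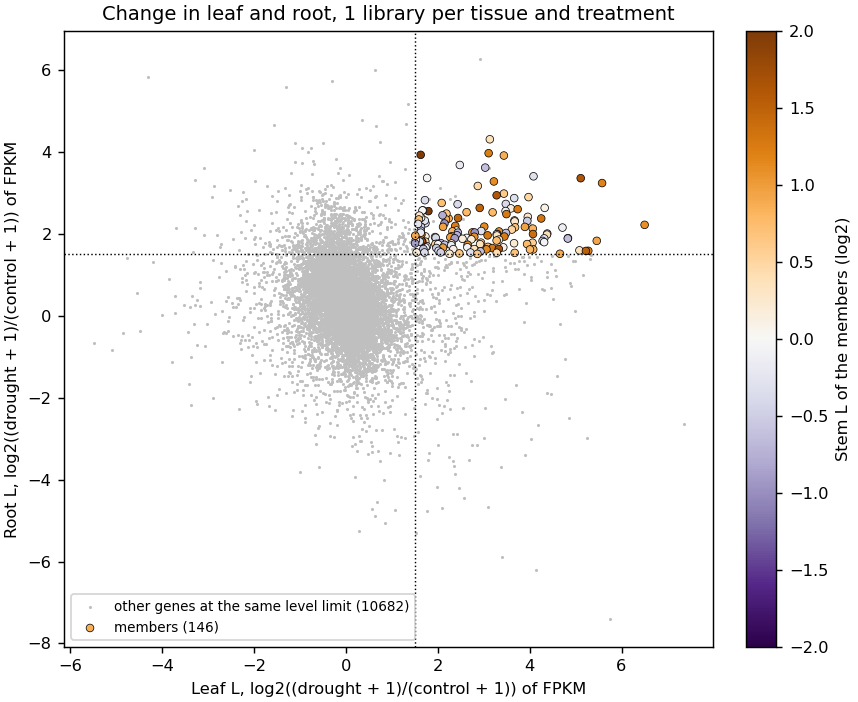
Leaf L against root L (both log2, drought over control as labelled) for the 10828 genes that met the level part of the rule, each tissue with 1 control and 1 drought library. The 146 members are the coloured points beyond both dotted lines at 1.5, with colour for stem L from -2 to 2, and the other genes are grey.

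Levels of the members separated leaf from root. The median member had 3.75 FPKM in leaf control and 36.6 FPKM in leaf drought, and 16.1 FPKM in root control and 71.1 FPKM in root drought. In stem it had 8.03 FPKM in control and 12.01 FPKM in drought. The median of all 10828 genes of the same level was 22.2 and 22.8 FPKM in leaf, 17.4 and 17.3 FPKM in stem, and 20.3 and 26.5 FPKM in root. In control plants the typical member was thus lower in leaf than the typical gene at the same level limit, and its level in root control lay nearer to theirs. Root control exceeded leaf control in 130 members (89.0%), against 44.4% of the 10828 genes and 96.5% of the 285 genes that passed 1.5 in leaf but not in root with stem L above -1. Root drought exceeded leaf drought in 116 members (79.5%), against 58.1% of the 10828 genes and 93.1% of the 932 genes that passed 1.5 in root but not in leaf with stem L above -1. Neither order was particular to the members. These levels are set across tables that were made separately for each tissue, and low leaf control is favoured by the rule itself.

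The library with the highest FPKM was root drought for 116 members, leaf drought for 27, stem control for 2 and stem drought for 1. By the rule neither leaf control nor root control could be the highest, and root drought had the largest FPKM sum (908668). The same counts over all genes were not computed, so these describe the selection. The members highest in stem control were GRMZM2G020272 (30.7 FPKM there, 22.9 FPKM in stem drought and 20.2 FPKM in leaf drought) and GRMZM2G037049 (26.9 FPKM there, 18.8 FPKM in stem drought and 19.1 FPKM in leaf drought). The member highest in stem drought was glu2. No member was at 0 FPKM in stem.

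**Figure D3:**
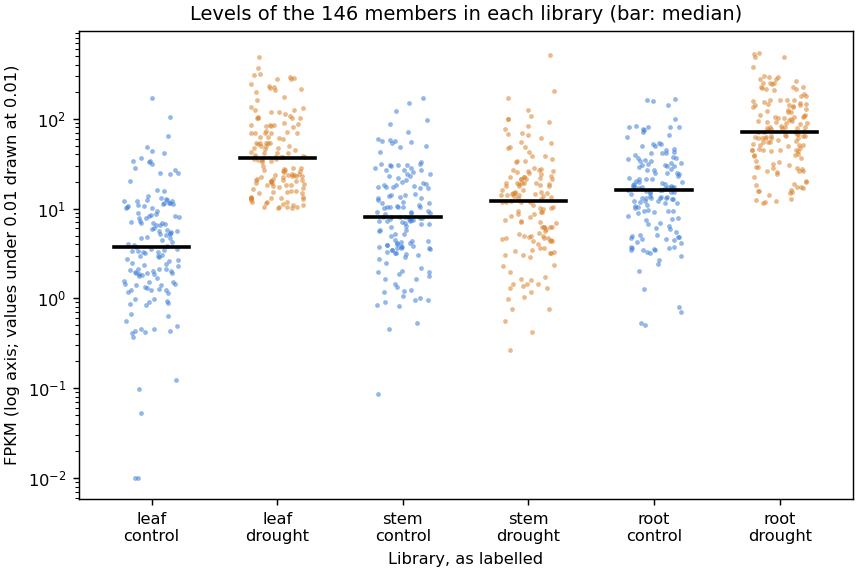
FPKM of the 146 members in each of the 6 libraries (log axis, 1 point per member, values under 0.01 drawn at 0.01), with the median as a black bar. The medians are 3.75 and 36.6 in leaf control and drought, 8.03 and 12.01 in stem, and 16.1 and 71.1 in root.

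Most members changed more in leaf than in root. The median L was 2.80 in leaf (1.51 to 6.50) and 1.98 in root (1.51 to 4.30). Leaf L was the larger in 106 members and exceeded root L by at least 1 in 57, whereas root L exceeded leaf L by at least 1 in 5. Among the 10828 genes of the same level, leaf L was the larger in 36.5% and exceeded root L by at least 1 in 11.997%. Root L exceeded leaf L by at least 1 in 28.1% of them. The rule selected on these same leaf and root values, so the counts describe the selection. An L of at least 3 was reached by 65 members in leaf, by 12 in root and by 8 in both tissues. Of the 10828 genes 1.40%, 0.683% and 0.0831% reached it, and the rule itself favours such values. Across the 146 members leaf L and root L had a Spearman's rho of 0.05 and a Pearson's r of 0.06, over a range that the rule cut at 1.5 in both tissues. Leaf L and stem L had a rho of 0.28 and root L and stem L a rho of 0.10. These correlations are across genes that share the same 6 libraries and are descriptions.

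The member with the largest leaf L, GRMZM2G355572, had 2.09 FPKM in leaf control and 279 FPKM in leaf drought, a 134-fold difference. It had 28.3 and 61.3 FPKM in stem control and drought, and 53.5 and 252 FPKM in the libraries labelled root control and root drought. Its drought levels in leaf and root were close to each other, and leaf control alone was low. GRMZM2G068967 also had a low leaf control value, with 1.42 and 106 FPKM in leaf, 13.5 and 26.7 FPKM in stem, and 52.8 and 189 FPKM in root. GRMZM2G020054 had 4.73 and 213 FPKM in leaf, 21.9 and 65.1 FPKM in stem, and 71.6 and 216 FPKM in root.

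Leaf control was below 1 FPKM in 23 members (15.8%) and root control in 4 (2.74%), against 0.489% and 0.157% of the 10828 genes of the same level. Low control values are favoured by the rule itself. For AC233979.1_FG007 leaf control was 0.000133 FPKM and leaf drought 11.2 FPKM, and for GRMZM5G890145 they were 0.000367 and 10.1 FPKM. No fold is given for members under 1 FPKM in control, because the pseudocount largely sets their L.

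The reference, the RefSeq annotation of assembly Zm-B73-REFERENCE-NAM-5.0, matched 92 of the 146 members, and it gives a gene name for 11. The remaining members are given by identifier, with no role. The 11 names are WRKY67, MYB112, aos1, CKX4, glu2, rth3, CNR09, TPS9, SAG, Rhodopsin and znf. They include 2 transcription factors, 2 enzymes of hormone turnover, a glucosidase, a root hair protein and a cell number regulator. After rescaling each library to the same sum, 14 of the 31 members named here no longer passed the rule, and among the 11 these were MYB112, CKX4, rth3, TPS9, SAG and Rhodopsin, whose root L was then 1.05, 1.41, 1.36, 0.92, 1.03 and 1.01.

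WRKY67 (GRMZM2G090594), of the WRKY family of DNA-binding regulators that is best known from defence and stress responses, had 3.29 and 18.4 FPKM in leaf control and drought. It had 7.41 and 14.4 FPKM in stem and 4.95 and 29.3 FPKM in root, so its drought library was the higher in each tissue, with the smallest step in stem. MYB112 (GRMZM5G803308), of the MYB family of regulators, had 0.419 and 20.8 FPKM in leaf, 4.52 and 8.59 FPKM in stem, and 12.2 and 43.3 FPKM in root. Among 242 identifiers with a transcription factor name, 54 met the level part of the rule. The members were 2 of these 54, beside 1.49% of all genes at that level past 1.5 in both tissues. Of the 196 with at least 1 FPKM in some library, 32 had L of at least 1 in leaf, 53 in root and 17 in both, beside the 7.42%, 18.9% and 1.96% of all such genes.

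The hormone genes among the members were aos1 and CKX4. The gene aos1 (GRMZM2G067225) encodes allene oxide synthase, an early enzyme of jasmonate synthesis, and had 28.4 and 87.4 FPKM in leaf control and drought. It had 58.9 and 99.6 FPKM in stem, and 74.2 and 381 FPKM in root, where its step was the largest. Of 24 lipoxygenase, allene oxide synthase, allene oxide cyclase and OPR genes, 1 had L of at least 1 in leaf and 4 had L of -1 or less, while in root 11 had L of at least 1 and 1 had L of -1 or less. The leaf rise of aos1 was the 1 leaf rise in that list. Of the 24 genes, 14 met the level part of the rule, and 23 had at least 1 FPKM in some library, beside the 18.9% of all such genes with L of at least 1 in root. Its relative aos2 (GRMZM2G002178) had 193 and 169 FPKM in leaf control and drought, 77.6 and 150.0 FPKM in stem, and 10.6 and 44.3 FPKM in root.

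CKX4 (GRMZM5G817173) encodes a cytokinin oxidase, an enzyme that breaks down cytokinin, and went from 1.78 to 26.1 FPKM in leaf, a 14.7-fold difference. It had 1.22 and 1.74 FPKM in stem and 2.42 and 12.2 FPKM in root, so stem stayed low in both libraries. Of 11 listed cytokinin oxidase genes, 8 had at least 1 FPKM in some library, 5 had L of at least 1 in root, 18.9% being the share of all such genes, and 1 in leaf, which was CKX4. CKX4 was also the 1 gene of the list that met the level part of the rule.

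Further named members belong to growth, cell wall and defence. The gene rth3 (GRMZM2G377215) encodes a COBRA-like protein needed for root hair elongation in maize, and it had 13.0 and 57.2 FPKM in root control and drought. It was present at lower levels in leaf, with 1.25 and 10.2 FPKM, and in stem, with 2.20 and 4.72 FPKM. CNR09 (GRMZM2G023081) belongs to the cell number regulator family, of which some members restrain organ size in maize, and it had 3.70 and 15.02 FPKM in leaf and 3.43 and 44.4 FPKM in root. Its stem values were 0.813 and 0.762 FPKM, so it was hardly detected there. Of 12 genes of the family, 10 had at least 1 FPKM in some library and 4 met the level part of the rule, and 5 had L of at least 1 in root, beside 18.9% of all such genes, and 1, CNR09, in leaf. The gene glu2 (GRMZM2G008247) encodes a beta-glucosidase, of the group of enzymes that release defence compounds from their sugar conjugates, and had 105 and 369 FPKM in leaf, 122 and 506 FPKM in stem, and 4.86 and 33.3 FPKM in root. It was the member with the largest stem L (2.04), and it was lowest in root in both treatments.

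The other 4 names say little of function by themselves. The gene named SAG (GRMZM2G041175) had 170 and 486 FPKM in leaf, 169 and 91.4 FPKM in stem, and 143 and 487 FPKM in root. Its 3 control libraries lay close together, and drought was the higher library in leaf and root and the lower in stem. The gene named Rhodopsin (GRMZM2G066197) had 36.3 and 282 FPKM in leaf, 96.7 and 125 FPKM in stem, and 158 and 529 FPKM in root. The gene named TPS9 (GRMZM2G312521) had 6.63 and 37.6 FPKM in leaf, 7.75 and 8.35 FPKM in stem, and 16.1 and 51.5 FPKM in root. The gene named znf (GRMZM2G478553) had 0.489 and 24.3 FPKM in leaf, 1.96 and 1.39 FPKM in stem, and 2.98 and 41.0 FPKM in root. TPS9 and znf were thus nearly level in stem, and znf was among the members with the largest changes in both leaf and root. Its leaf control was under 1 FPKM, and its leaf L of 4.08 became 2.41 with a pseudocount of 5 FPKM.

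**Figure D4:**
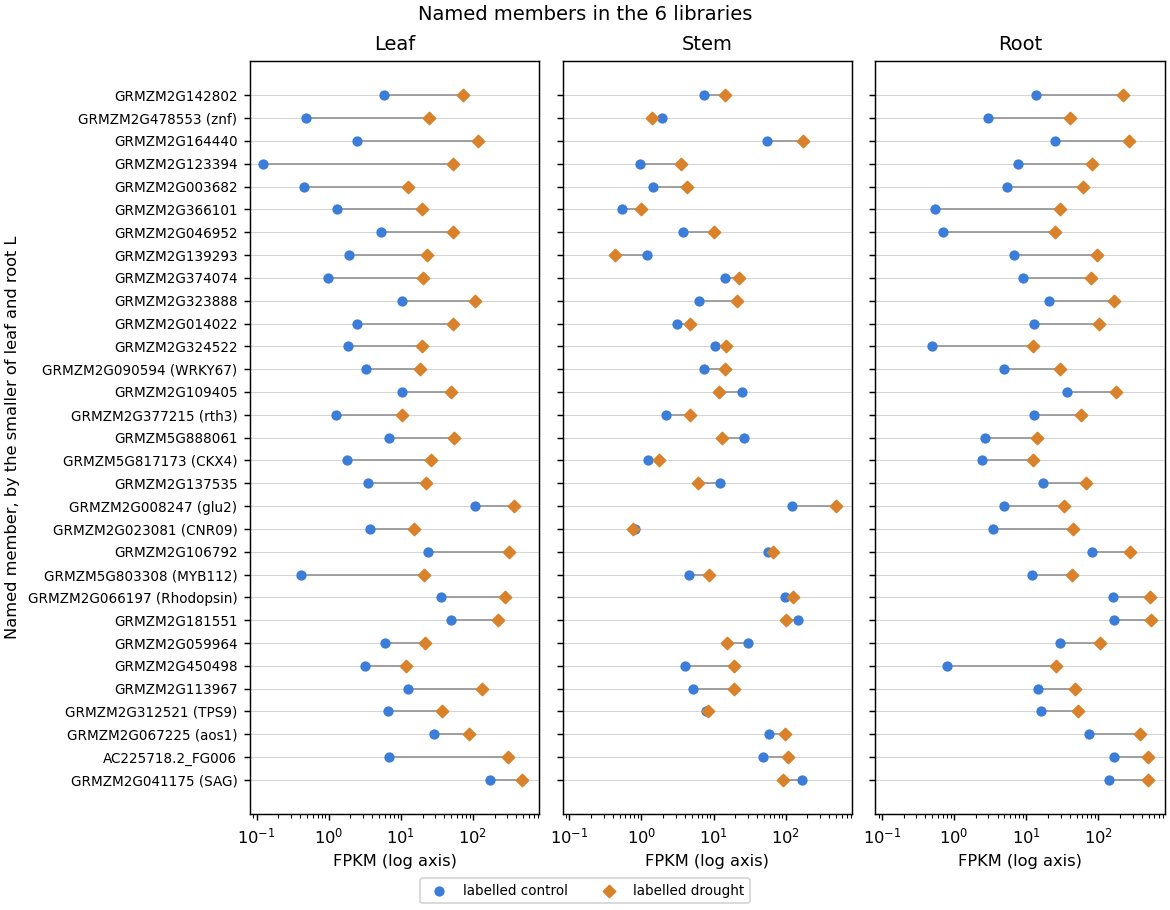
FPKM (log axis) of 31 of the members named in the text, in leaf, stem and root. The library labelled control is a blue circle and the library labelled drought an orange diamond, and genes are ordered by the smaller of leaf L and root L. Drought lies to the right of control in leaf and root for every member by selection, while in stem the order varies. The largest stem L was that of glu2 (122 to 506) and the lowest that of GRMZM2G109405 (24.5 to 11.96). By plain fold, as drawn, GRMZM2G450498 (4.86) and GRMZM2G139293 (0.356) lay further out.

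Ranked by the smaller of leaf L and root L, GRMZM2G142802 came first, with 5.90 and 73.9 FPKM in leaf, 7.36 and 14.3 FPKM in stem, and 13.6 and 218 FPKM in root. This was a 12.5-fold difference in leaf and a 16.0-fold difference in root, beside 1.94-fold in stem. GRMZM2G164440 was 48.2-fold higher in leaf drought (2.46 and 119 FPKM), 3.14-fold in stem (54.7 and 171 FPKM) and 10.6-fold in root (24.8 and 263 FPKM). It was abundant in stem already in control, unlike in leaf.

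GRMZM2G123394 had 0.123 and 52.6 FPKM in leaf, 0.949 and 3.49 FPKM in stem, and 7.69 and 80.7 FPKM in root. GRMZM2G003682 had 0.459 and 12.6 FPKM in leaf, 1.45 and 4.33 FPKM in stem, and 5.45 and 61.3 FPKM in root. Both were under 0.5 FPKM in leaf control and under 5 FPKM in stem. GRMZM2G366101 had 1.32 and 19.4 FPKM in leaf, 0.535 and 0.977 FPKM in stem, and 0.538 and 29.3 FPKM in root, the largest root L of the members (4.30). That rank depends on the pseudocount, since with 5 FPKM its root L was 2.63 and that of GRMZM2G142802 was 3.58. GRMZM2G046952 had 5.28 and 53.1 FPKM in leaf, 3.73 and 10.1 FPKM in stem, and 0.699 and 25.5 FPKM in root. In GRMZM2G366101, GRMZM2G046952 and GRMZM2G324522 (1.85 and 19.8 FPKM in leaf, 10.5 and 15.1 FPKM in stem, 0.502 and 12.4 FPKM in root), root control was under 1 FPKM and lay below leaf control.

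GRMZM2G139293 had 1.91 and 22.8 FPKM in leaf, 1.19 and 0.424 FPKM in stem, and 6.82 and 94.5 FPKM in root. GRMZM2G374074 had 0.984 and 20.5 FPKM in leaf, 14.3 and 22.5 FPKM in stem, and 9.14 and 78.9 FPKM in root. GRMZM2G014022 had 2.44 and 53.2 FPKM in leaf, 3.08 and 4.73 FPKM in stem, and 12.8 and 101 FPKM in root. In stem these 3 ranged from a lower drought value in GRMZM2G139293 to a 1.58-fold excess in GRMZM2G374074.

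At 100 FPKM or more in both drought libraries stood 26 members (17.8%), against 3.70% of the 10828 genes of the same level. With the same stem limit, the share was 14.7% of the 285 genes past the limit in leaf but not in root. It was 7.19% of the 932 genes past the limit in root but not in leaf. High drought values are favoured by the rule itself. Besides glu2 and SAG, the members with the highest leaf drought values were GRMZM2G106792 (24.0 and 315 FPKM in leaf, 56.9 and 66.9 FPKM in stem, 80.9 and 278 FPKM in root) and AC225718.2_FG006 (6.90 and 305 FPKM in leaf, 49.0 and 108 FPKM in stem, 163 and 489 FPKM in root). The highest root drought value was that of GRMZM2G181551, with 164 and 546 FPKM in root, 48.9 and 221 FPKM in leaf, and 150 and 99.8 FPKM in stem. In these 3 genes the root control library already held 80.9 FPKM or more, and their root fold was 3.00 to 3.43.

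The rule limited stem only from below, so a smaller change there than in leaf and root follows from the selection. The median stem L of the members was 0.31 (-0.98 to 2.04), beside 0.09 for the 10128 genes of the same level with stem L above -1. An L of at least 1 in stem was found in 31 members (21.2%), against 720 (7.11%) of those 10128 genes. Stem L lay between 0 and 1 in 64 members and below 0 in 51 (34.9%), against 42.5% below 0 among the 10128. With the same stem limit, genes past 1.5 in leaf but not in root had stem L of at least 1 in 35 of 285 (12.3%), and genes past it in root but not in leaf in 117 of 932 (12.6%). The share below 0 was 42.8% among the 285 and 26.0% among the 932. With 1 library in each group these shares are descriptions, and no cause of the difference was tested.

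At the upper end of stem, after glu2, stood GRMZM2G450498 with 4.01 and 19.5 FPKM in stem, 3.19 and 11.9 FPKM in leaf, and 0.796 and 26.2 FPKM in root. GRMZM2G113967 had 5.23 and 19.1 FPKM in stem, 12.6 and 135 FPKM in leaf, and 14.6 and 47.1 FPKM in root. These genes and GRMZM2G164440 were higher in the drought library of every tissue.

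At the lower end, GRMZM2G109405 had 24.5 and 11.96 FPKM in stem, while it had 10.5 and 49.8 FPKM in leaf and 36.5 and 177 FPKM in root. GRMZM5G888061 had 26.7 and 13.2 FPKM in stem, 6.85 and 53.9 FPKM in leaf, and 2.69 and 14.04 FPKM in root. GRMZM2G059964 had 30.2 and 15.2 FPKM in stem, 6.06 and 21.4 FPKM in leaf, and 29.3 and 105 FPKM in root. For GRMZM2G137535 the values were 12.4 and 6.19 FPKM in stem, 3.50 and 22.3 FPKM in leaf, and 17.3 and 66.7 FPKM in root. In all 4 the stem drought value was 0.487 to 0.503 of the control value while leaf and root drought were 3.53-fold to 7.86-fold higher.

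**Figure D5:**
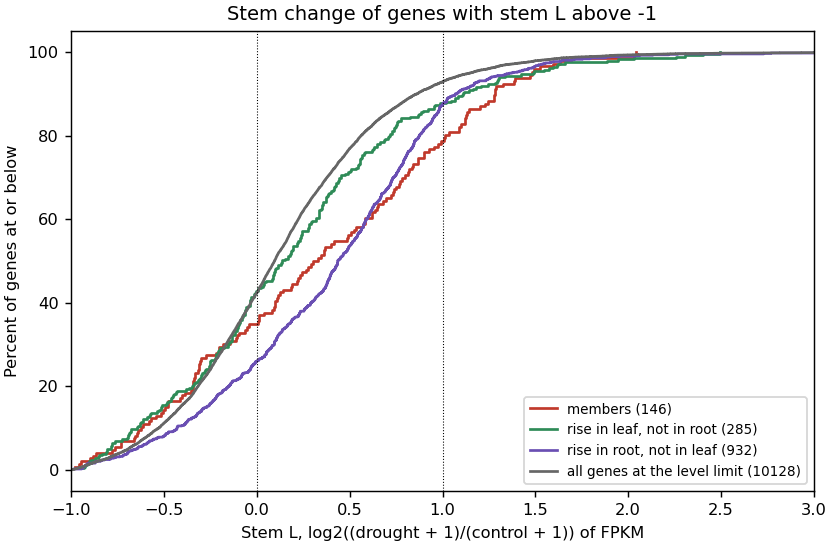
Cumulative percent of genes (vertical axis) at or below a given stem L (horizontal axis, log2, drought over control) for genes with stem L above -1 that met the level limit, namely the 146 members, 285 genes past 1.5 in leaf alone, 932 genes past it in root alone and all 10128. At a stem L of 1, 21.2% of the members, 12.3% and 12.6% of the genes high in leaf or root alone, and 7.11% of all these genes lie at or above the line.

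The limits of the rule cut through a continuous range. SAG (1.51) and GRMZM2G043921 (1.51) lay just inside the leaf limit, and GRMZM2G174396 (1.49) and GRMZM2G497007 (1.48) just outside it. GRMZM2G426046 and GRMZM2G125034 (both 1.51) lay just inside the root limit. Just outside it were GRMZM2G036351 (1.48), named TIFY28 after a family that includes the JAZ repressors of jasmonate signalling, and GRMZM2G054807 (1.47). The 15 genes left out by the stem limit included GRMZM2G055180 with a stem L of -1.06, GRMZM2G061723 with -1.10, and bZip112 (GRMZM2G103647), which had 28.5 and 140 FPKM in leaf, 16.7 and 6.87 FPKM in stem, and 6.84 and 55.2 FPKM in root.

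No gene of the fixed lists other than the 2 transcription factors was a member, and at a background of 1.49% few members would be counted in lists of this size. Of 23 listed genes of abscisic acid synthesis and signalling, 12 met the level part of the rule, with 1 at L of at least 1 in leaf and 8 in root, 7 of which were PYL receptors. The gene vp14 (GRMZM2G014392), which encodes a carotenoid-cleaving enzyme that limits abscisic acid synthesis, had 1.76 and 24.2 FPKM in leaf and 3.75 and 3.46 FPKM in root. The galactinol synthase gene gols2 (GRMZM5G872256), which starts the synthesis of raffinose sugars, had 22.3 and 47.2 FPKM in leaf and 214 and 30.5 FPKM in root. Of the 3 dehydrin and LEA genes 2 met the level part of the rule, of the 24 heat shock genes 9, and of the 35 kinase and phosphatase genes 23. Of those 35, 11 had L of at least 1 in leaf, 4 in root and 2 in both. The shares of all genes with at least 1 FPKM in some library were 7.42%, 18.9% and 1.96%. The 25 type 2C protein phosphatase genes counted above are among the 35 and gave 9, 2 and 1 of these rises.

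In root, L of at least 1 was found in 14 of 51 redox and detoxification genes, 2 of 8 sugar cleavage genes, 5 of 13 nitrogen genes, 11 of 24 lipid genes, 4 of 21 transport genes, 8 of 28 cell wall genes, 1 of 7 proteases and 9 of 17 defence genes. In leaf the corresponding counts were 2, 2, 1, 0, 2, 1, 0 and 2. An L of -1 or less in root was found in 4, 1, 2, 1, 1, 0, 0 and 3 of them, which would be the rises if the root labels were exchanged. In the order given, 51, 6, 12, 23, 20, 21, 6 and 17 of the listed genes had at least 1 FPKM in some library. Of all such genes 18.9% were past 1 in root and 7.42% in leaf. In root the lipid and defence lists stood above that share, and the transport and protease lists near it. No list was tested, and nothing particular to these lists is read from the counts. An L of at least 1 in both tissues was found in 1 cell wall gene and 1 defence gene. The jasmonate list shares 18 of its 24 genes with the lipid list.

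Members lay on all 10 chromosomes, from 5 members on chromosome 2 to 14 on chromosome 9 among the 92 with a match. Some were close neighbours in the gene order of assembly Zm-B73-REFERENCE-NAM-5.0. How all matched genes spread over the chromosomes, and how often other genes have such neighbours, was not computed. Neither the counts nor the neighbours are therefore read as a trait of the members. GRMZM2G352618 and GRMZM2G323888 were adjacent on chromosome 6. The former had 2.96 and 17.1 FPKM in leaf and 3.53 and 24.4 FPKM in root, and the latter had 10.2 and 108 FPKM in leaf, 6.37 and 21.3 FPKM in stem, and 20.5 and 163 FPKM in root. On chromosome 3, GRMZM2G022931, GRMZM2G023237 and GRMZM2G023436 stood 2 genes apart from each other in turn. Their leaf values were 2.11 and 18.2, 7.80 and 54.3, and 3.07 and 15.4 FPKM, and their root values 24.3 and 144, 3.18 and 12.9, and 13.2 and 46.3 FPKM. WRKY67 lay 4 genes from GRMZM2G364748 on chromosome 10, which had 42.0 and 233 FPKM in leaf, 72.0 and 202 FPKM in stem, and 26.8 and 144 FPKM in root. Whether neighbours share sequence, and so reads, was not tested.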

How the data were processed

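RNA-seq reads were mapped to the maize B73 genome with TopHat, and FPKM values were obtained with Cufflinks and Cuffdiff by the authors. Program versions and the genome release are not given in the sources used here. The deposited tables, 1 per tissue, hold a control and a drought FPKM column for the same 109715 identifiers, and a log2 ratio column by the authors that was not used. The study states a pair of replications per treatment and plants pooled for RNA, while the tables hold 1 value per tissue and treatment.

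L was computed with a pseudocount of 1 FPKM and was not centred. Since no group had a second library, no test was run, and shares of genes past a limit are descriptions. The members and the gene lists were chosen with earlier results of these data known. Members named are the 12 with the largest smaller value of leaf and root L, the 4 highest and 4 lowest in stem L, the 4 highest drought FPKM in leaf and in root, those with a symbol in a list, and those next to a limit. The 15 gene lists were matched by symbol, and 5 more lists were added after values were seen. The added lists were those of type 2C protein phosphatases, PYL receptors, jasmonate synthesis, cytokinin oxidases and cell number regulators. Members with any other name, the members with the largest leaf L or the lowest leaf control, those highest in stem control and close neighbours were also chosen after their values were seen. Medians over a list used genes with at least 1 FPKM in some library. Symbols and gene order came from RefSeq's annotation of Zm-B73-REFERENCE-NAM-5.0, which matched 18777 identifiers (17.1%). Its coordinates were not used. Alternatives were other pseudocounts, level limits, fold limits, centring and rescaling. A planned search for promoter motifs was not run. The selection was checked on simulated data with known members. Software was pandas 2.3.3, numpy 2.4.6 and scipy 1.17.1 under Python 3.11.15, with figures by matplotlib 3.10.9.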

Additional observations from a re-analysis of the deposited data

Results flagged for a closer look

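In 51 of the 146 members (34.9%) the stem change had the opposite sign to that in leaf and root. Stem L was also below 0 in 42.5% of the 10128 genes of the same level with stem L above -1. The lowest stem L values were -0.98 for GRMZM2G109405, -0.96 for GRMZM5G888061, -0.95 for GRMZM2G059964 and -0.90 for GRMZM2G137535, each with L above 1.5 in leaf and root. Among genes outside the members, dhn1 (GRMZM2G079440) had L of 5.74 in leaf and -7.40 in root, dhn2 (GRMZM2G373522) had 3.83 and -2.36, and Lea14A (GRMZM2G050607) had 0.84 and -2.48, with root as labelled. These differences between tissues rest on 1 library per group and were not tested.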

How the results depend on the processing

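The count of 146 members became 97 with a pseudocount of 5 FPKM, 289 with an L of at least 1, 54 with an L of at least 2, 61 after rescaling each library to the same sum, and 77 after rescaling without identifiers over 1% of a sum, an alternative chosen after seeing the data. Of the 61 and 77 genes, 48 and 63 were among the 146. With a pseudocount of 0.1 FPKM, no level limit, a limit of 20 FPKM or centring the count was 157, 208, 100 and 118. The median stem L of the members was 0.63 with an L of at least 2 and 0.21 after rescaling to the same sum, and 13.4% of members had stem L of at least 1 with a pseudocount of 5 FPKM. The shares of genes past the limit in leaf, root and both were 3.35%, 7.78% and 0.905% with a pseudocount of 5 FPKM, 2.81%, 7.90% and 0.747% with no level limit, 5.86%, 13.5% and 1.86% with a limit of 20 FPKM, 7.68%, 22.5% and 2.99% with an L of at least 1, 3.13%, 4.75% and 0.582% with an L of at least 2, 5.45%, 3.02% and 0.557% after rescaling, and 5.30%, 4.02% and 0.686% after rescaling without the large identifiers. In root it was 11.7% with a pseudocount of 0.1 FPKM and 8.24% with centring, where the share in both was 1.23%. Of 465 recomputed leaf, stem and root L values of the 31 named members, 95 moved by more than 0.5 and none changed sign, but 14 of the 31 no longer passed the rule after rescaling to the same sum, 12 after rescaling without the large identifiers, 12 with a pseudocount of 5 FPKM and 4 with centring. No paired analysis was possible because each group has 1 library, and no library could be left out. Promoter motifs were not run. The tables hold no fragment counts, so small FPKM values were given no counting limit.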
